A study of Mus musculus with 2 samples.

Results

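The genes of glycolysis and of the hypoxia response were described in myeloid-derived suppressor cells (MDSC), which ID8 tumour cells had induced from mouse bone marrow. The list held 35 genes, and a gene was measured where at least 1 probe set of the array carried its symbol and no other. By this rule 31 of the 35 genes were measured, with 66 probe sets, among 18193 genes measured on the array. Probe sets of Gapdh and Bnip3l were annotated with further symbols, those of Gapdh and Bnip3l pseudogenes among them, and those probe sets were left out. Signals of Eno1 and Gpi1 were not analysed here. Of these 4 genes, Gapdh, Eno1 and Gpi1 enter the description of upstream sequence.

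Femoral marrow of C57BL/6 mice was kept in medium with 5% FBS in both groups. For the ID8-induced MDSC, 2000000 marrow cells lay below 50000 ID8 cells in a transwell plate for 4 days, and the label calls the inducer a supernatant. ID8, also written 1D8 in the labels, is a tumour line from the ovarian surface epithelium of the mouse. The control was labelled as bone marrow cells only, with no statement of its time in culture, and both groups carried the phenotype CD11b+Gr1+. The number of mice and any pooling were not given in the sources used here. Each group had 1 array, so no value has a replicate error, no difference could be tested, and the number of arrays limits the precision. The deposited control signals fell along the rows of the table (3103 rises in 45036 steps, against 22454 for ID8-induced MDSC) and were not tied to probe sets. No fold change was therefore taken, and every value below is from the ID8-induced array.

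The labelled cell type was checked against its markers. All 9 measured neutrophil and MDSC markers reached the 90th percentile of the array's signals, led by S100a9 at 24857, S100a8 at 20545 and Ngp at 18326, and Ly6g, part of the Gr1 antigen, had no probe set of its own. Of 6 measured monocyte and macrophage markers, 4 reached the 90th percentile, against 14.8% of all genes. The brightest were Cd14 at 10143, Mpeg1 at 5515 and Csf1r at 4403. Ccr2 at 286 (9.84 on its dimmest probe set) and Cx3cr1 at 405 fell short. On their brightest probe sets all 6 passed the signal floor of 68.77, the 40th percentile of the array. Of other cells, 3 of 5 erythroid, 5 of 5 B lineage, 3 of 5 T and NK cell and 6 of 9 epithelial and mesothelial markers lay above it, against 71.3% of all genes, so the counts by themselves say little of these cells. Of these lists, Alas2 alone reached the 90th percentile. The erythroid markers read 1693 for Alas2, 161 for Epor, 137 for Slc4a1, 55.94 for Klf1 and 51.32 for Hba-a1, the last 2 below the floor, and the highest epithelial or mesothelial signal was Cldn3 at 239. In this bulk RNA, fewer cells of a type and less RNA per cell cannot be told apart.

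Glycolysis splits glucose into pyruvate in the cytosol and yields ATP without oxygen, and lactate dehydrogenase then regenerates the cofactor it needs. When oxygen is low, prolyl hydroxylases of the EGLN family stop marking the factor HIF-1alpha for destruction by the VHL ubiquitin ligase, and HIF raises transcription of glycolytic enzymes, glucose transporters and its own inhibitors. Neutrophils hold few mitochondria and are known to depend on glycolysis, and myeloid cells can also stabilise HIF in response to inflammatory signals.

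Glucose uptake and each enzyme step down to lactate had at least 1 gene at or above the 90th percentile, apart from enolase and the steps of Gapdh and Gpi1, whose main genes were not measured. The muscle or neuronal forms Pfkm, Eno2 and Eno3, the lactate dehydrogenase subunit Ldhb and both lactate transporters lay below the 90th percentile. Of the 31 genes, 31 lay above the floor, 25 at or above the 90th percentile (619.8) and 12 at or above the 99th percentile (4651). Among all 18193 genes the shares were 71.3% above the floor, 14.8% at the 90th and 1.39% at the 99th percentile. The floor was set by percentile, since detection calls were not given in the sources used here, and a count above it sets the list little apart. The median percentile of the 31 genes was 98.4, against 61.4 for all genes. A gene is represented by its brightest probe set, and its percentile says how many of the array's 45037 probe sets, in percent, were dimmer. Probe sets differ in how well they hybridise, so an order of signals or percentiles between genes need not be an order of transcript amount. The members and lists were chosen with earlier results of these data known, so the counts describe them and no test was made.

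**Figure D1:**
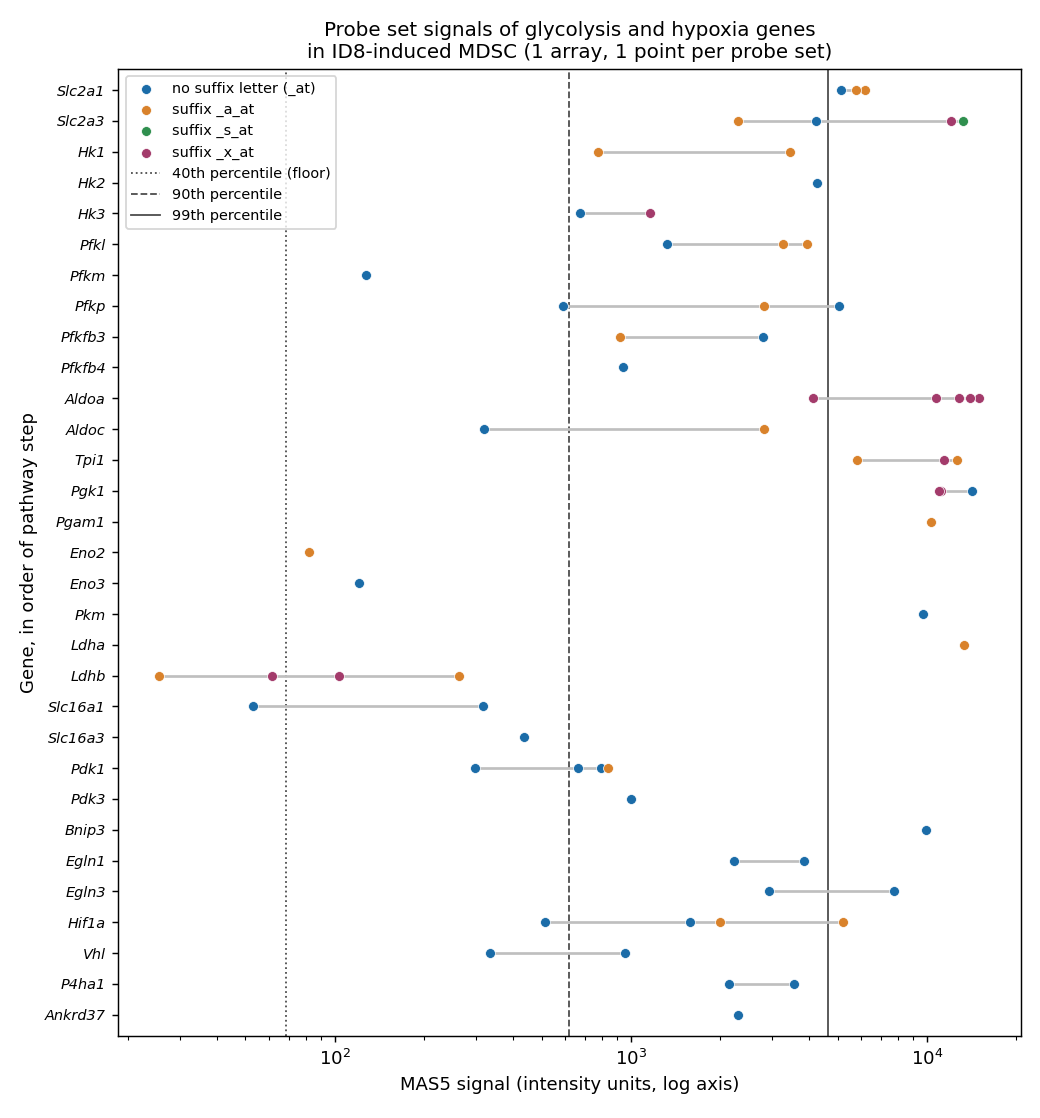
MAS5 signal (horizontal, log axis) of each of the 66 probe sets of 31 genes, in pathway order, on the ID8-induced array, coloured by the suffix of the probe set ID, with grey lines joining the probe sets of a gene and vertical lines at the 40th, 90th and 99th percentile. The 3 points left of the dotted floor belong to Ldhb and Slc16a1, and Pfkm, Eno2 and Eno3 lie between the floor and the 90th percentile.

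Both glucose transporters were bright. Slc2a1, which encodes the widely expressed transporter GLUT1, read 6185, 5755 and 5146 on its 3 probe sets, all above the 99th percentile. Slc2a3, which encodes the high-affinity transporter GLUT3, read 13257, 12094, 4222 and 2311. The 2 higher Slc2a3 values came from probe sets with the suffixes _s_at and _x_at, which Affymetrix gives where probes can also match other transcripts, and the 2 lower ones from kinds held to be specific to the gene. Slc2a1 thus rested little on the choice of probe set, with a ratio of brightest to dimmest of 1.20, and Slc2a3 more, with 5.74.

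All 3 hexokinases, which trap glucose as glucose 6-phosphate, lay at or above the 90th percentile on every probe set. Hk2, the inducible and HIF-responsive form, read 4276 on its only probe set. Hk1, the constitutive form, read 3456 and 774, and another probe set annotated with Hk1 and other symbols was left out. Hk3, the form known from myeloid cells, read 1165 and 672, the higher value on an _x_at probe set.

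At phosphofructokinase, the committed step, the isoenzymes fell on both sides of the 90th percentile. Pfkl, the liver form also known as the main form of neutrophils, read 3954, 3260 and 1329. Pfkp, the platelet form, read 5061, 2828 and 589. Pfkm, the muscle form, read 128 on its only probe set, at the 62nd percentile. The regulators that make or break down fructose 2,6-bisphosphate, the activator of this enzyme, were bright as well. Pfkfb3 read 2809 and 921.5, and Pfkfb4 read 945 on its only probe set.

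At aldolase, triose phosphate isomerase and phosphoglycerate kinase, 1 gene each reached the 99th percentile. Aldoa, the main aldolase, read from 4131 to 15069 with a median of 12862 over 5 probe sets, all of the _x_at kind, so its level cannot be told from that of near-identical sequences. Aldoc, the brain form of aldolase, read 2824 and 319, a ratio of 8.87, and its call rests on the brighter probe set. Tpi1, which interconverts the triose phosphates, read 12603, 11435 and 5816. Pgk1, the first ATP-forming enzyme, read 14189, 11139 and 10994, the highest on a probe set without a suffix letter.

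Pgam1, which moves the phosphate of phosphoglycerate, read 10343 on 1 probe set. Pkm, the pyruvate kinase of most tissues apart from liver and red cells, read 9726 on 1 probe set. That probe set was not assigned to a splice form here, so the M1 and M2 forms were not separated. Enolase was seen only through its tissue forms: Eno2, the neuronal form, read 81.69 and Eno3, the muscle form, 120.95, at the 46.6th and 60.3rd percentile. The start of Eno2 lies 44485 bases from that of Tpi1 on chromosome 6 of GRCm38.p6, with starts of 3 other genes between them.

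Lactate formation and export gave a mixed picture. Ldha, the subunit that favours lactate formation, read 13313 on its only probe set, which has the suffix _a_at (probes shared by transcripts of the same gene). Ldhb, the heart subunit, read 263, 103, 61.42 and 25.64, so 2 of its 4 probe sets lay below the floor. Slc16a3, which encodes the lactate exporter MCT4 and is a known HIF target, read 438, at the 86.4th percentile. Slc16a1, which encodes MCT1, read 318 and 53.23, the second below the floor. Neither transporter reached the 90th percentile. Bsg (basigin), the chaperone both transporters need at the membrane, read 8936.

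Pyruvate dehydrogenase kinases hold pyruvate back from oxidation in the mitochondrion. Both on the list, Pdk1 and Pdk3, reached the 90th percentile on their brightest probe sets. Outside the list, Pdk2 (62.01) and Pdk4 (46.66) lay below the floor. Pdk1, a HIF target, read 842, 797, 666 and 297. Pdk3 read 1004 on 1 probe set.

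Genes of the oxygen-sensing loop were measured on both its sides. Hif1a, the regulated subunit of HIF, read 5202, 2004, 1590 and 514, a ratio of 10.13 between probe sets, the widest of the list after Ldhb (10.25). The mRNA signal does not give the level of the protein, which is controlled by degradation. Egln1, the prolyl hydroxylase PHD2, read 3864 and 2241. Egln3, the hydroxylase PHD3, which HIF itself induces, read 7778 and 2937. Vhl, which recognises hydroxylated HIF, read 958 and 336, so 1 of its probe sets fell short of the 90th percentile.

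Other HIF targets were bright too. Bnip3, a receptor that marks mitochondria for removal, read 9952 on 1 probe set, at the 99.8th percentile. P4ha1, a collagen prolyl hydroxylase subunit, read 3565 and 2150. Ankrd37, a small ankyrin repeat gene and HIF target, read 2312 on 1 probe set.

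Probe sets of a gene share the RNA and the array, so their spread shows dependence on the probe set and is no replicate error. The median ratio of brightest to dimmest was 2.98 over the 19 members with several probe sets, against 3.01 over 9010 genes of that kind. For 2 of the 19 (10.5%) the brightest passed the floor and the dimmest did not, against 43.7% of all such genes. With the dimmest probe set standing for each gene, 29 members lay above the floor, 20 at or above the 90th percentile and 7 at or above the 99th. Of all genes on their dimmest probe set, 49.7% lay above the floor, 6.46% at the 90th and 0.715% at the 99th percentile. Taking the brightest favours genes with many probe sets, but the 12 members with 1 probe set each also passed the floor, and 8 reached the 90th percentile. Of 9183 genes with 1 probe set, 57.7% passed the floor and 8.7% reached the 90th percentile.

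A reference for what the array gives for genes of glucose metabolism outside their tissue came from isoenzymes known for liver, muscle or testis. Of 15 measured, 8 lay above the floor, against 71.3% of all genes, and 0 reached the 90th percentile, against 14.8%. Their median signal was 75.14. The brightest were Pklr, the pyruvate kinase of liver and red cells, at 563 (61.61 on its dimmest probe set) and Ldhc, the testis lactate dehydrogenase, at 545 (192 on its other). Whether Pklr, as a red cell form, lies outside its tissue in this RNA from marrow cells was not tested. The dimmest were G6pc2 and G6pc, catalytic subunits of glucose 6-phosphatase in islets and liver, at 17.61 and 17.89. The limit from differing hybridisation also holds where these signals are set beside those of the members, and passing the floor does not by itself show expression.

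**Figure D2:**
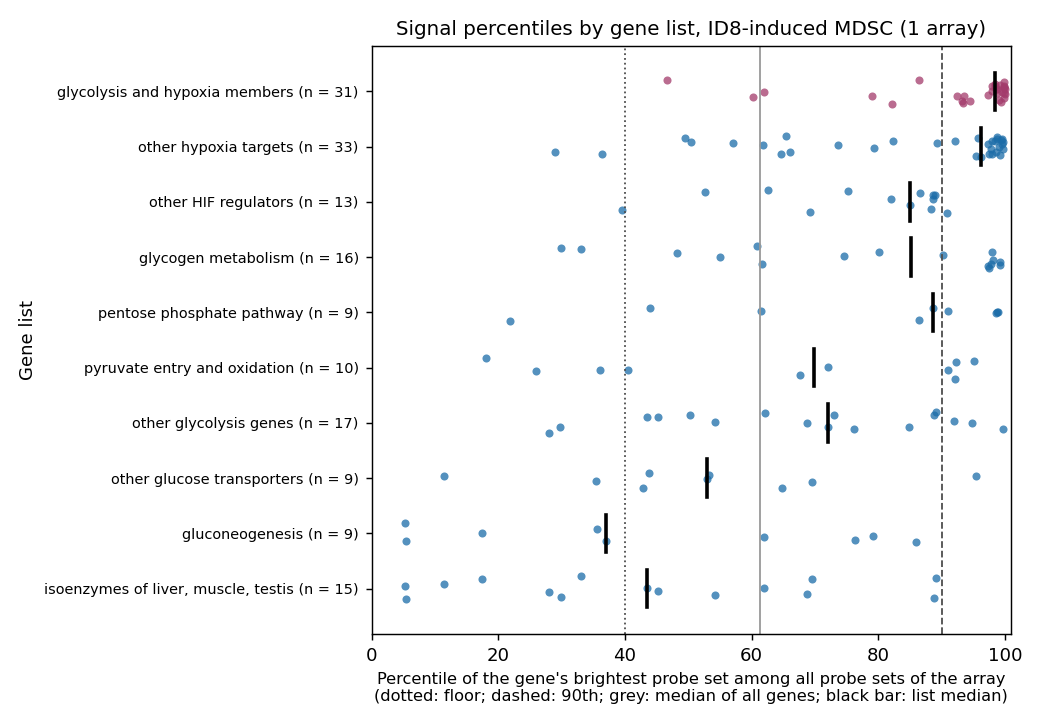
Percentile of the brightest probe set of each gene (horizontal) for the members and 9 other gene lists, 1 point per gene and a black bar at each list median, with the floor dotted, the 90th percentile dashed and the median of all genes (61.4) in grey. The medians of the members (98.4) and of the other hypoxia targets (96.2) lie near the right edge. Those of gluconeogenesis (37.1) and of the isoenzymes of liver, muscle and testis (43.5) do not. Each of these isoenzymes also stands in another list shown, gluconeogenesis among them, so these lists are not independent.

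Many further hypoxia targets, outside the 35 genes, lay high in the array as well. Of 33 measured, 31 were above the floor, 20 at or above the 90th percentile and 6 at or above the 99th. Among all genes the shares were 71.3%, 14.8% and 1.39%. The median percentile of the 33 was 96.2 and the lower quartile 66.0, so the list was not bright throughout. Mif, a cytokine, read 8833 (32.35 on its dimmest probe set) and Hmox1, which breaks down haem, 8429. The targets below the floor were Car12, a carbonic anhydrase, at 62.44 and Tmem45a at 50.97. Other regulators of HIF lay lower, with 12 of 13 past the floor. Of the 13, 1 (7.69%) reached the 90th percentile, against 14.8% of all genes. Cited2, which competes with HIF for its coactivator, read 684 and the coactivator gene Ep300 555, while Epas1, the HIF-2alpha gene, read 96.57 and Arnt2 68.02, below the floor.

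Pathways that branch from glycolysis differed among themselves. Of all genes, 71.3% lay above the floor and 14.8% at or above the 90th percentile. Glycogen genes lay above the floor in 14 of 16 cases, 8 at or above the 90th percentile, with Pygl, the glycogen phosphorylase of liver and leukocytes, at 5886 and the primer protein gene Gyg at 5773.5, and with Gys2 (52.33) and Pygm (56.98), the liver synthase and muscle phosphorylase, below the floor. Of these glycogen genes, Gys1, Gbe1, Pgm1 and Pgm2 also stand among the hypoxia targets. Pentose phosphate genes lay above the floor in 8 of 9 cases, 4 at or above the 90th percentile. Tkt (transketolase) read 4448, with 174 on its dimmest probe set, and Pgd (phosphogluconate dehydrogenase) 4203. H6pd read 75.97, and Tktl1 lay below the floor at 41.24.

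Genes that carry pyruvate into mitochondrial oxidation lay above the floor in 7 of 10 cases, near the share of all genes (71.3%). On their brightest probe sets, 4 of the 10 reached the 90th percentile, against 14.8% of all genes. Mpc1, a subunit of the mitochondrial pyruvate carrier, read 1304 and Dld, the shared E3 subunit of the dehydrogenase complexes, 817 with 24.22 on its dimmest probe set. The genes below the floor were the kinase genes Pdk2 (62.01) and Pdk4 (46.66) and the phosphatase gene Pdp1 (36.19). Gluconeogenesis, the reverse route, passed the floor with 4 of 9 genes, and 0 reached the 90th percentile. The brightest were Slc37a4 at 416 and Pck2 at 266 (29.86 on its dimmest probe set). Other glucose transporters passed in 7 of 9 cases, with Slc2a6 at 1386 and the insulin-responsive Slc2a4 at 169, while Slc2a10 (60.86) and the liver form Slc2a2 (27.21) did not. The rest of the glycolysis genes passed in 15 of 17 cases, with Bsg at the 99.7th percentile, Galm (galactose mutarotase) at 1228 and 30.69 on its dimmest probe set, and Slc16a7 (52.25) and testis Pgk2 (49.77) below the floor.

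Sequence upstream of the members was searched for the core of the hypoxia response element, to which HIF binds, as ACGTG or GCGTG on either strand. RefSeq promoter entries were matched by symbol for 33 of the 35 genes, with 46 annotated starts. Only the 250 bases before each start were used, and overlapping matches were counted as 1. The motif was present in 37 of 46 windows (80.4%), against 38.6% of 32851 windows of all genes, and 20 windows (43.5%) held at least 2 matches, against 13.5%. For genes measured on the array the shares were 48.9% with a match and 19.3% with at least 2. Among genes at or above the 90th percentile they were 58.8% and 26.0%. At or above the 99th percentile they were 58.5% and 24.8% of 258 windows. Known HIF targets are part of the list by its choice, some windows of a gene overlap, and a match is a match of letters and not a bound site.

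The windows below show how the motif is placed for a mitophagy receptor, 2 enzymes of the lower pathway, a hexokinase and 2 genes of the oxygen-sensing loop. They were chosen after the matches were known, from the 16 of 46 windows that overlap no gene in the RefSeq table. Each is read 5′ to 3′ on the strand of its gene and ends at the base before the start, with matches in capitals.
Bnip3: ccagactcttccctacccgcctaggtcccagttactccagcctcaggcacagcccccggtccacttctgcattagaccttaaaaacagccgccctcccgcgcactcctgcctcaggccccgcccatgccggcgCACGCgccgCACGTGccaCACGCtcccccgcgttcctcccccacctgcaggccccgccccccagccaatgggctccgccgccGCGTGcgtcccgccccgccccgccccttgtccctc
Pgk1: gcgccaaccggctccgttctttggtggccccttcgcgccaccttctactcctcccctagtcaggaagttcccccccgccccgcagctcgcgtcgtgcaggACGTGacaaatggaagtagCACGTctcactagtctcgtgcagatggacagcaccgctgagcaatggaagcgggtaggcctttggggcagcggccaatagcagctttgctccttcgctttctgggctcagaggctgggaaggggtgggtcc
Pgam1: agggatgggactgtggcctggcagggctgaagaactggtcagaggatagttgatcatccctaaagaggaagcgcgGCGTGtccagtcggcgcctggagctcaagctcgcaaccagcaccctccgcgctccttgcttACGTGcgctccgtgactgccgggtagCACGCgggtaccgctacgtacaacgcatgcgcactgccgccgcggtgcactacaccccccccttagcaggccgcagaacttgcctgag
Hk2: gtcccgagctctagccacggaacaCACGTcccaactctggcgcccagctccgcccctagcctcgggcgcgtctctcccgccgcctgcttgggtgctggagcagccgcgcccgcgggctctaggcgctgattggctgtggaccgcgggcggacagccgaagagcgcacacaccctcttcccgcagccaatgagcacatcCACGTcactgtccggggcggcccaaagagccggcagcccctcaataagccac
Egln3: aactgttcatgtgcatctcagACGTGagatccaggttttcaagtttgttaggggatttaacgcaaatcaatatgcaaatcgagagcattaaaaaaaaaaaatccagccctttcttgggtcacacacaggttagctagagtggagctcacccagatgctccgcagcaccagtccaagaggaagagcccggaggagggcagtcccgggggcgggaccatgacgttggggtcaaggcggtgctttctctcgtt
Vhl: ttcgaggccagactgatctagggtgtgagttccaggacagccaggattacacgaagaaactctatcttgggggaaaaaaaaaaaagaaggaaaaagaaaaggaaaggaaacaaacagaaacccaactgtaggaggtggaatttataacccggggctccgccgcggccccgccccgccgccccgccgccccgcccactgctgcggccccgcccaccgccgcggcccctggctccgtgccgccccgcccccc

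In GRCm38.p6 these windows are chr7:138909507-138909756 on the minus strand for Bnip3 and chrX:106186850-106187099 on the plus strand for Pgk1. They are chr19:41911621-41911870 on the plus strand for Pgam1 and chr6:82774455-82774704 on the minus strand for Hk2. The last are chr12:54203875-54204124 on the minus strand for Egln3 and chr6:113623744-113623993 on the plus strand for Vhl. The window of Bnip3 holds 4 matches, 1 of them the palindrome CACGTG, which is also the E-box letter sequence read by other factors. Pgk1 has 2 matches 150 to 127 bases before the start, Pgam1 has 3, Hk2 has 2 and Egln3 has 1, 229 bases before it. Vhl has 0, and no match says only that these letters are not in this window.

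**Figure D3:**
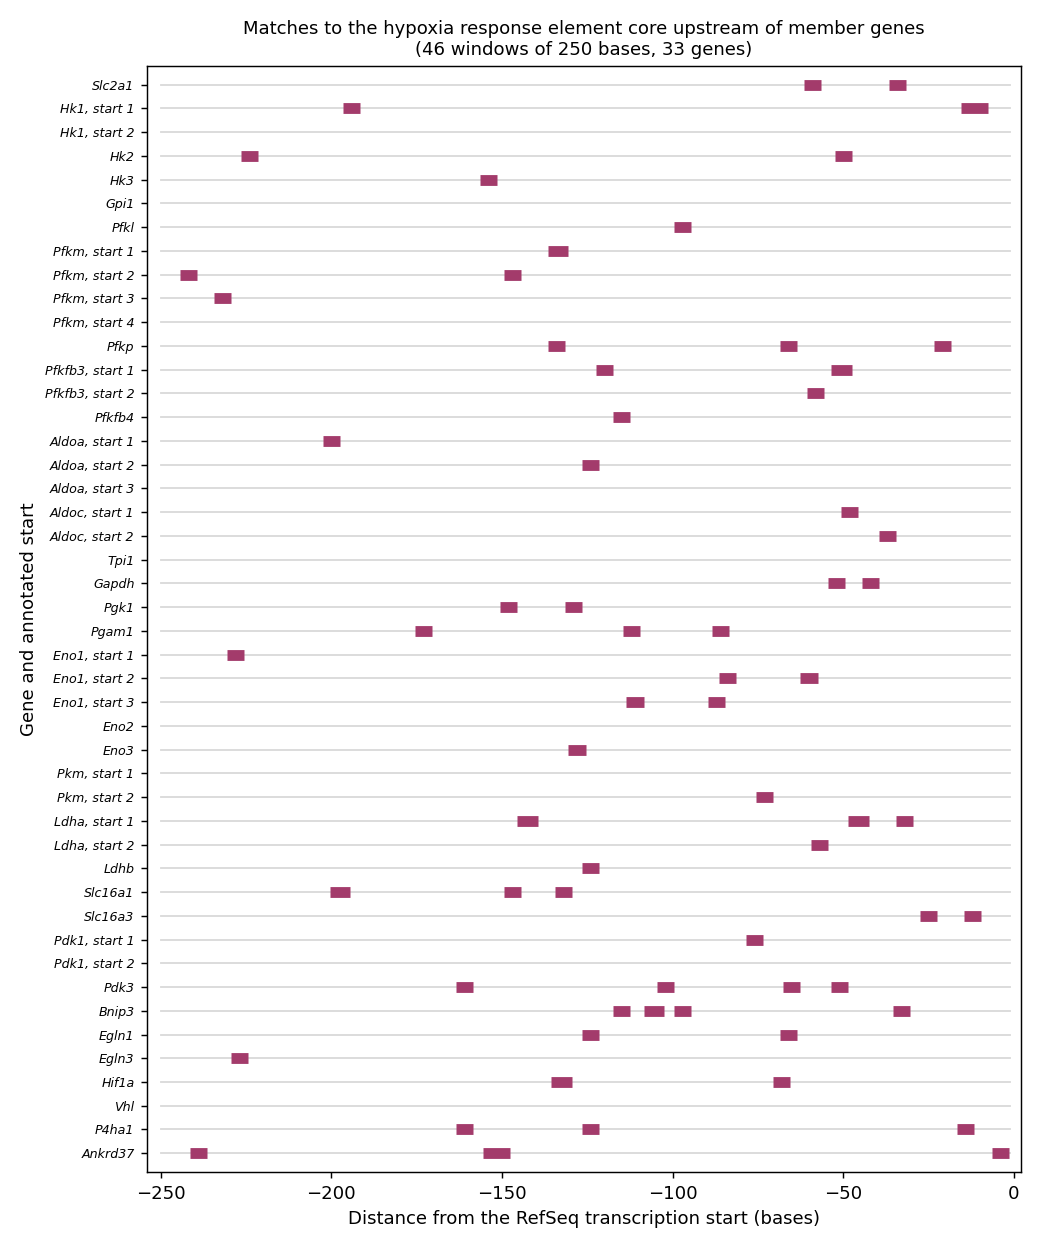
Positions of the matches (bars) in the 250 bases before each of 46 annotated starts of 33 member genes (grey lines), by distance from the start in bases. Bnip3 and Pdk3 hold 4 matches each, and Gpi1, Tpi1, Eno2 and Vhl hold 0.

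The motif contains a CpG, so its share was also read by CpG content. With 5 to 14 CpG in the window, 15 of 18 member windows held the motif (83.3%), against 46.2% of 9290 windows of all genes. With 15 to 24 CpG it was 13 of 15 (86.7%) against 65.6% of 5466. At 25 or more it was 6 of 6 against 71.4% of 3504, and at 0 to 4 it was 3 of 7 (42.9%) against 15.8% of 14591. The median number of CpG was 14 in member windows and 6 in all windows. In the class of 5 to 14 CpG it was 10.5 and 8, so CpG content was not fully matched there. In the others it was 20 and 19 (15 to 24 CpG), 29 and 30 (25 or more), and 2 and 2 (0 to 4).

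**Figure D4:**
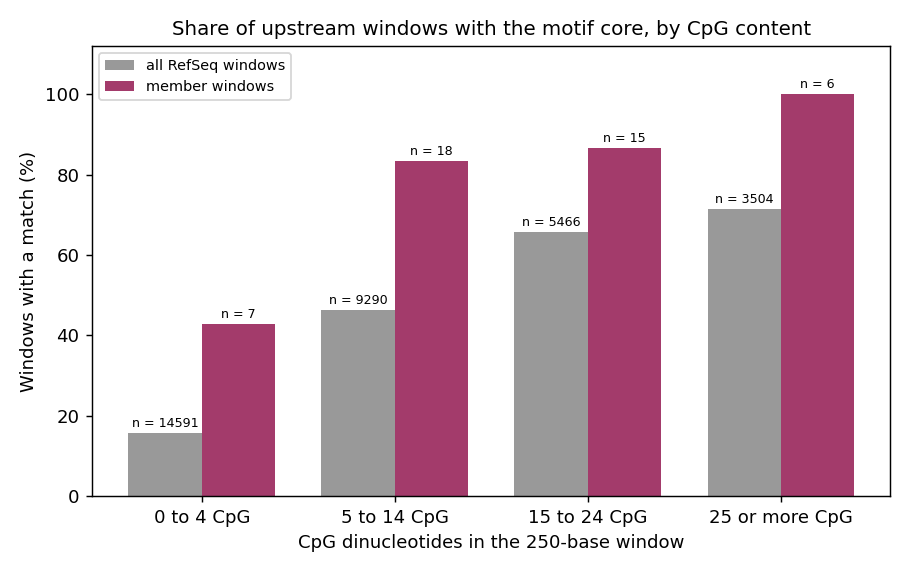
Share of 250-base windows with at least 1 match (percent, vertical) among all RefSeq windows (grey) and member windows (red), by number of CpG in the window, with the number of windows above each bar. The member share lies above that of all windows in each of the 4 classes, with 6 to 18 member windows a class.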

How the data were processed

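Biotinylated cRNA from 6 ug of total RNA was hybridised to Affymetrix arrays, per the labels' protocols, with 1 array of ID8-induced MDSC and 1 of control marrow. The authors deposited linear signal intensity per probe set, made with MAS5 per the submitters' processing notes. Its version, scaling target and calls of presence are not given in the sources used. The control column was read only to count rises from row to row. Values of the ID8-induced column were used as deposited, with no further scaling.

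Probe sets were named from the platform annotation: 34945 of 45037 had exactly 1 gene symbol and were used, and 932 with several symbols and 9160 without any were not. For all 31 measured members the Entrez ID gave the same symbol in the RefSeq table of GRCm38.p6. Gene lists and members were chosen with earlier results of these data known. All measured members are named. Of every other list the 2 brightest and up to 2 dimmest genes are named, and of marker lists up to 3 brightest. Hba-a1, Klf1, Epor, Slc4a1, Cldn3, Alas2, Ly6g, Ccr2, Cx3cr1 and Pdk2 were added after their values were seen. So were the genes shared by the glycogen and hypoxia lists, and the dimmest probe sets given. The alternatives run were a floor at the 20th or at the 60th percentile, a gene's mean log2 signal or dimmest probe set in place of its brightest, and leaving out probe sets by suffix. In simulated data on 18193 genes, 200 of 200 planted genes came back within 0.1 percentile points. This checks only the code that takes the brightest probe set and its percentile, and not the signals. An identity of isoenzyme proteins that had been planned was not computed, since protein sequences were not used here. Python 3.11.15, numpy 2.4.6, pandas 2.3.3 and matplotlib 3.10.9 were used.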

Additional observations from a re-analysis of the deposited data

How the results depend on the processing

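The counts of members above the floor and at or above the 90th percentile, and the median percentile, stayed within 1.5 times of the reported value in each alternative run. That bound is wide for counts of 31 and 25 among 31 and a median of 98.4, so staying within it says little. The count at or above the 90th percentile fell from 25 to 20 with the dimmest probe set. It was 19 of 24 with probe sets without a suffix letter. The median ranged from 93.6 with the dimmest probe set to 98.4. The count at or above the 99th percentile (12) fell to 7 with the dimmest probe set and to 6 with probe sets without a suffix letter, where 24 members have a value and Aldoa, Tpi1, Pgam1, Ldha, Hk1, Eno2 and Ldhb have none. Of 33 probe sets without a suffix letter, 32 lay above the floor, against 63 of 66 in all. With the floor at the 60th percentile, 30 of 31 members passed, against 51.6% of all genes, as did 3 of 9 other glucose transporters and 5 of 15 isoenzymes of liver, muscle and testis. With the dimmest probe set, 4 of 9 other glucose transporters, 8 of 17 other glycolysis genes and 4 of 10 pyruvate entry genes passed. Marker counts that moved over 1.5 times were B lineage, from 5 to 2 with the dimmest probe set and 3 with the mean log2, and T and NK cell, from 3 to 1 with the dimmest and 5 with the floor at the 20th percentile. Erythroid moved from 3 to 5 at that floor, and epithelial and mesothelial from 6 to 2 with the floor at the 60th percentile and 3 with the dimmest probe set or without suffix letters. Among single members, 11 of 31 signals changed more than 1.5 times when the mean log2 over probe sets was taken, 17 of 31 with the dimmest probe set, 5 of 24 without suffix letters and 1 of 30 (Hk3, to 672) without _x_at probe sets. No paired analysis was possible because each group has 1 array. Whether the tumour cells changed any member cannot be read from 1 usable array, and signals near the floor have no order.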
